A study of Mus musculus with 30 samples.

Results

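The 10 genes described here mark inhibitory interneurons of the mouse brain or encode neuropeptides and related products that such neurons release: Gad1, Gad2, Slc32a1, Pvalb, Reln, Sst, Npy, Vip, Cck and Tac1. They were chosen by symbol, through the accession of each probe on an Agilent mouse array, and all 10 were found among the 36717 genes and transcripts measured. RNA of the hippocampus and of the brain without it was measured in 15 perfused mice, on 1 array for each mouse and tissue. The animals were 3 WT females, 2 JHT females, 2 female and 3 male 3xTgAD mice, and 2 female and 3 male JHT_3xTgAD mice. The labels give the strain C57BL/6j and an age of 15 to 20 months for every animal. JHT mice carry a deletion of the joining segments of the immunoglobulin heavy chain locus Igh and lack mature B cells. 3xTgAD mice carry, among their alleles, human APP and MAPT transgenes under a Thy1 promoter cassette, which is active mainly in projection neurons. JHT_3xTgAD mice are the cross of both, and males were measured only in the genotypes with the transgenes.

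GABA is made from glutamate by the decarboxylases GAD67 (Gad1) and GAD65 (Gad2) and is packed into synaptic vesicles by the transporter VGAT (Slc32a1). Interneurons of the hippocampus and cortex are sorted by what else they contain, such as the calcium buffer parvalbumin (Pvalb) in fast-spiking basket cells, somatostatin (Sst) in dendrite-targeting cells, vasoactive intestinal peptide (Vip) in cells that mostly inhibit other interneurons, and neuropeptide Y (Npy), reelin (Reln) or cholecystokinin (Cck) in further classes. None of these genes is restricted to cortical interneurons. GABA neurons fill the striatum and cerebellar cortex, Purkinje cells express Pvalb, striatal projection neurons express Tac1, and many excitatory neurons express Cck.

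The peptide genes are classic targets of cyclic AMP signalling, whose response element TGACGTCA was first defined in the somatostatin promoter. Promoters of all 10 members were matched in RefSeq (build GRCm38.p6; 11 promoters, since Pvalb has more than one). The full element was found only in Sst, and in 1.79% of all 32851 promoters of the same length. Its half-site TGACG, on either strand, lay in the promoters of Sst, Vip, Cck, Gad2 and Tac1, and in 20.8% of all promoters, and it is contained in the full element. The stretch searched was longer than the 120 bases printed, and 1 Tac1 half-site, 197 bases before the start, lies outside them. The 120 bases before the start of 5 peptide genes follow, 5′ to 3′ on the strand of the gene, with half-sites and the full element in capitals. They are shown because, between the tissues, Vip and Tac1 were called lower in hippocampus, Cck was called higher, and Sst and Npy were not called, and because Npy, which holds no half-site, varied together with Sst across mice.
Sst, chr16:23890845-23890964, minus strand: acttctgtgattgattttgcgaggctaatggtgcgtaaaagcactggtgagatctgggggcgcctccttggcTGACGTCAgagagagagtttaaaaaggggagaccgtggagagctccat
Npy, chr6:49822590-49822709, plus strand: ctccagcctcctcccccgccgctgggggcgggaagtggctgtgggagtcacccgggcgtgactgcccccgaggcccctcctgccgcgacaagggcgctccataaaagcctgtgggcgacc
Vip, chr10:5639098-5639217, plus strand: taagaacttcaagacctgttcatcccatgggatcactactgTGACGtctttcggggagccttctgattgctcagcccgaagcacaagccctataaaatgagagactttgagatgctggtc
Cck, chr9:121495695-121495814, minus strand: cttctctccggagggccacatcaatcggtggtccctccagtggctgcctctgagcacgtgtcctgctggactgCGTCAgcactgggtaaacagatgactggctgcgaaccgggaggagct
Tac1, chr6:7554941-7555060, plus strand: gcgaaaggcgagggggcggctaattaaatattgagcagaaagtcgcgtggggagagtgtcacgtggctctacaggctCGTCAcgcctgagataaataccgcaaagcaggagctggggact
A match of letters is a description of the promoter and not of binding, and the arrays did not measure it.

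The scanner software marked 52.6% to 62.5% of each array's probes as well above background and none as saturated. No probe was matched to Ighm, so the deletion in JHT mice was not checked here. Of 8 genes of the hippocampal fields, 5 were called higher in hippocampus and 1 lower, and their summed level was 14.08 to 15.19 against 13.80 to 14.10. Choroid plexus genes summed to 10.89 to 18.54 in hippocampus, and their part in the results was not tested. Of the 10 members, 9 were well above background on all 30 arrays and Reln on 29. The arrays lay on 4 slides. Slide 1 held hippocampi, slides 3 and 4 held brains, and slide 2 held 7 hippocampi and the brain of JHT_3xTgAD male replicate 0, so that slide and tissue can hardly be told apart. On the hippocampal array of that same mouse, 432 spots were marked as outliers by the scanner software, against 102 to 160 on the others. Values below are log2 intensities after quantile normalization, changes are limma estimates with their standard errors (SE), and a gene is called at an adjusted p under 0.05 over all 36717. No level is compared between genes, because each probe has its own scale.

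In hippocampus against the rest of the brain, 8 of 10 members were called, 7 of them lower in hippocampus and Cck higher. Of all genes, 51.1% were called, 26% lower and 25.1% higher. The GABA genes, Pvalb and Tac1 showed no overlap between the 15 hippocampi and the 15 brains, and with Cck 6 of 10 members did not overlap, against 8.51% of all genes. Sst and Npy overlapped widely. In bulk RNA, fewer cells of a type and less RNA per cell cannot be told apart.

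**Figure D1:**
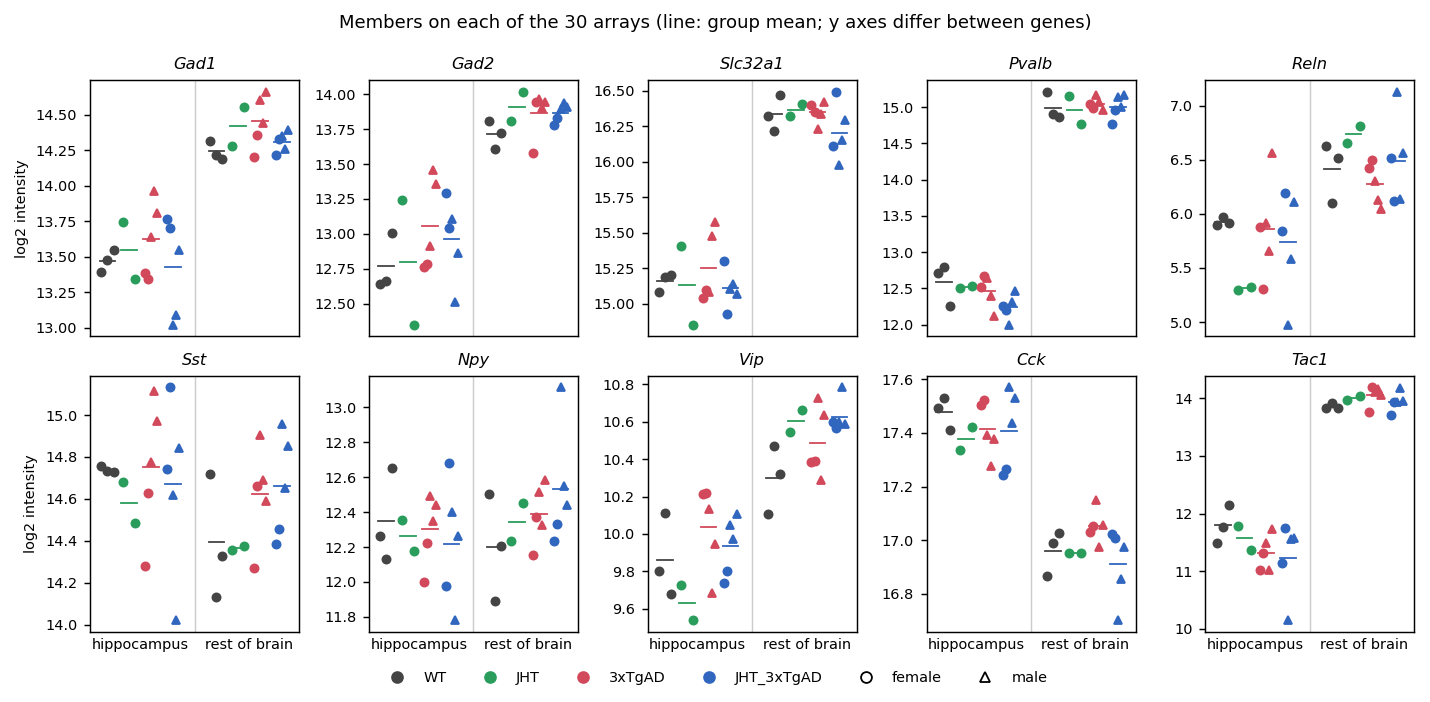
Log2 intensity of the 10 members (y axis, own range for each gene) on each of the 30 arrays, by tissue (x axis) and genotype (colours; circles are females, triangles males, lines are group means). Gad1, Gad2, Slc32a1, Pvalb and Tac1 lie lower in all 15 hippocampi than in any of the 15 brains, Cck lies higher, and Sst and Npy overlap.

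The genes of GABA synthesis and packing were lower in hippocampus. Gad1 ranged from 13.02 to 13.96 in hippocampus (median 13.54) and from 14.19 to 14.66 in the rest of the brain (median 14.33), a change of -0.83 (SE 0.058, limma adjusted p = 1.93e-10), or 1.78-fold. Gad2 ranged from 12.35 to 13.46 (median 12.92) and from 13.58 to 14.02 (median 13.89), a change of -0.91 (SE 0.086, adjusted p = 1.68e-08). All 15 mice had a lower RNA signal of Gad1 and of Gad2 in the hippocampus, and the ranges of the tissues did not touch. Slc32a1 ranged from 14.85 to 15.57 (median 15.10) against 15.98 to 16.49 (median 16.32), a change of -1.15 (SE 0.066, adjusted p = 9.37e-12), or 2.22-fold. A second, far dimmer probe of Slc32a1, at a mean of 7.96 in hippocampus and 8.28 in brain, moved the same way by only 0.32. Among the other genes of GABA metabolism and uptake, 5 of 6 were lower in hippocampus, against 26% of all genes. These included Slc6a11, which takes up GABA, Abat and Aldh5a1, which break it down, and Slc38a1, which carries its precursor glutamine. The change was -0.86 (SE 0.051) for Abat and -0.66 (SE 0.056) for Slc38a1.

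Pvalb and Tac1 showed the largest differences of the 10. Pvalb ranged from 11.999 to 12.79 in hippocampus (median 12.47) and from 14.76 to 15.21 in the rest of the brain (median 15.00). The change of -2.57 (SE 0.071, adjusted p = 1.06e-16) corresponds to 5.94-fold, and a second Pvalb probe differed by -2.88. Within mice the Pvalb difference ran from -3.14 to -2.11. Tac1, the precursor of substance P and neurokinin A, ranged from 10.15 to 12.15 in hippocampus (median 11.50) and from 13.71 to 14.19 in the rest (median 13.95), a change of -2.55 (SE 0.13, adjusted p = 1.33e-12), or 5.86-fold. The lowest Tac1 value belonged to the array with 432 outlier spots, and without that mouse the change was -2.48. Other cell types moved with these genes. The summed level of 7 striatal projection neuron markers was 13.10 to 14.36 in hippocampus and 15.41 to 16.03 in the rest of the brain, and 7 of 7 were called lower. For 5 cerebellar genes, chosen after their values were seen, it was 9.45 to 10.93 and 16.24 to 16.66, and 5 of 5 were called lower. The part of the striatum and the cerebellum in the lower Pvalb, Tac1 and GABA genes was not tested.

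Among the other peptides, Cck was the only member called higher in hippocampus with quantile normalization. It ranged from 17.24 to 17.57 there (median 17.42) and from 16.70 to 17.15 in the rest (median 16.99), a change of 0.44 (SE 0.034, adjusted p = 9.90e-10), higher in 15 of 15 mice. The summed level of 7 excitatory neuron markers was also higher, at 15.67 to 16.11 against 14.88 to 15.14, with 4 of the 7 called higher and 3 lower, and its part in the Cck difference was not tested. Vip was lower in hippocampus in 15 of 15 mice, although the tissues overlapped, at 9.54 to 10.22 (median 9.95) against 10.11 to 10.78 (median 10.56). Its change was -0.61 (SE 0.059, adjusted p = 3.03e-08). Reln, which guides neuronal layering and is made in the adult by interneurons among other cells, was dim, at 4.97 to 6.56 (median 5.88) against 6.04 to 7.13 (median 6.50). It changed by -0.71 (SE 0.12, adjusted p = 5.45e-05) and was lower in 13 of 15 mice. The summed level of 4 marker genes of Cajal-Retzius cells was 8.33 to 9.77 in hippocampus and 11.23 to 11.98 in the rest of the brain. Of these, Ebf3, Lhx1 and Lhx5 were called lower in hippocampus and Trp73 higher. The part of these cells and of the cerebellum in the Reln difference was not tested. The lowest Reln value, not well above background, was again on the hippocampal array of JHT_3xTgAD male replicate 0, and the highest was on the brain array of the same mouse.

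Sst and Npy, often found in the same interneurons, did not pass the threshold. Sst ranged from 14.02 to 15.13 in hippocampus (median 14.73) and from 14.13 to 14.96 in the rest (median 14.59), and was higher in hippocampus in 10 of 15 mice. Its change was 0.16 (SE 0.084, 95% interval -0.01 to 0.34, adjusted p = 0.123). The adjusted p of Sst was 0.00826 with scaling to the 75th percentile, 0.000539 with the deposited scores and 0.0376 without JHT_3xTgAD male replicate 8, so its call rests on the processing and on that mouse. Npy ranged from 11.78 to 12.68 (median 12.26) and from 11.89 to 13.11 (median 12.37), and was lower in 10 of 15 mice. The Npy change was -0.11 (SE 0.095, 95% interval -0.30 to 0.09, adjusted p = 0.384). Both intervals lie well inside a 2-fold difference.

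An exact permutation test over the signs of the 15 within-mouse differences (two-sided) gave p = 6.10e-05, the smallest it can give, for Gad1, Gad2, Slc32a1, Pvalb, Vip, Cck and Tac1. It gave p = 0.000977 for Reln, 0.133 for Sst and 0.213 for Npy (exact test, 10 genes tested, not adjusted). Scaling to the 75th percentile moved the median change of all genes from -0.0039 to 0.28 and the share of calls that were lower from 50.9% to 30.5%, and each of the 8 called members kept its direction and call. On slide 2 alone, where the brain of JHT_3xTgAD male replicate 0 met the hippocampi of replicates 8 and 9, the differences (no test) were -1.03 for Gad1, -1.20 for Gad2, -0.87 for Slc32a1, -2.74 for Pvalb and -2.36 for Tac1. There they were also -0.56 for Vip, 0.78 for Cck, -1.28 for Reln, -0.53 for Sst and -1.09 for Npy, so that Sst turned its sign and Npy became larger. That brain held the highest Npy, Reln and Sst and the lowest Cck and Slc32a1 of the 15 brains.

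**Figure D2:**
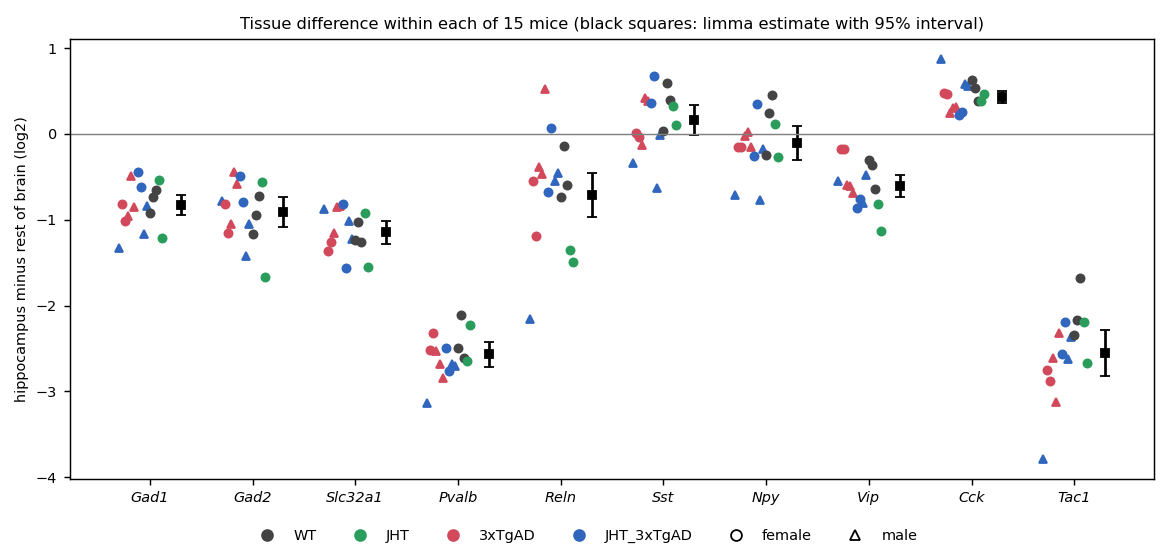
Difference between hippocampus and rest of brain (y axis, log2) within each of the 15 mice for each member (x axis), coloured by genotype, with the limma estimate and its 95% interval as black squares. Pvalb and Tac1 lie near -2.6, the GABA genes between -0.83 and -1.15, Cck above 0 in every mouse, and Sst and Npy on both sides of 0.

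The wider set of 83 genes in 6 lists (GABA metabolism, interneuron identity, other peptides, peptide processing, receptors of the members' peptides, reelin signalling) held 20 genes higher and 40 lower in hippocampus, against 25.1% and 26% of all genes. Neuropeptide precursors leaned lower, with 10 of 13 lower, 2 higher and a median change of -1.13, against -0.0039 for all genes. Penk, the enkephalin precursor abundant in striatal neurons, was 13.02 ± 0.49 (SD, n = 15) in hippocampus and 15.92 ± 0.17 (SD, n = 15) in the rest, a change of -2.93 (SE 0.14). Trh, the thyrotropin-releasing hormone precursor, changed by -3.89 (SE 0.51) and was the most variable, at 7.03 ± 1.84 (SD, n = 15) in hippocampus. Of the marker genes of the hypothalamus, 6 of 6 were called lower in hippocampus, with a median of -5.00.

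Of 33 interneuron identity genes, 9 were higher and 12 lower, near the 25.1% and 26% of all genes. With scaling to the 75th percentile, 12 were higher and 11 lower. That scaling called 24897 of all 36717 genes, with 30.5% of those calls lower. Chodl, a marker of the rare long-range Sst neurons, was well above background on 0 of 15 hippocampi and 15 of 15 brains, and was at least 3.04-fold lower in hippocampus (limma adjusted p = 4.94e-14). That bound sets its mean in the brain, 5.89, against the lowest signal among probes well above background on each hippocampal array, since its measured mean of 2.50 there is below background. Lhx6, the transcription factor of interneurons born in the medial ganglionic eminence, changed the other way, by 0.88 (SE 0.073), in tissue where Pvalb was lower. Lamp5, a marker of neurogliaform cells, changed by -2.08 (SE 0.047), and Htr3a, the ionotropic serotonin receptor of Vip and related cells, by 1.52 (SE 0.092). Lhx6, Lamp5, Htr3a, Abat, Aldh5a1, Slc6a11, Slc38a1 and Dab1 were picked from the lists after their values were seen. Among 11 genes of peptide processing and dense-core granules, 7 were lower and 2 higher, while 4 were lower and 5 higher with the deposited scores.

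Receptors of the members' peptides went both ways, with 5 of 14 higher and 6 lower, against 25.1% and 26% of all genes. Npy2r, the presynaptic receptor for neuropeptide Y, was 11.58 ± 0.19 (SD) in hippocampus and 8.64 ± 0.24 (SD) in the rest of the brain, a change of 2.94 (SE 0.076, adjusted p = 1.44e-16). Npy itself, the gene of the ligand, was not called. Vipr2, a receptor for vasoactive intestinal peptide and for PACAP, changed by -3.35 (SE 0.20, adjusted p = 1.91e-11). Of the 6 reelin pathway genes, Dab1, the adaptor that carries the reelin signal, was higher (0.32) and the other 5 were not called.

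The tissue pattern was found in each genotype. Of the 10 members, 7 were called in WT, 8 in JHT, 7 in 3xTgAD and 8 in JHT_3xTgAD mice, against 27.6%, 17.6%, 35.6% and 34.5% of all genes. Each set held 1 higher member, Cck. The Pvalb difference was -2.40 in WT, -2.44 in JHT, -2.55 in 3xTgAD and -2.74 in JHT_3xTgAD mice, and that of Cck was 0.52, 0.43, 0.38 and 0.45. Reln varied most between genotypes, from -0.49 in WT and 3xTgAD to -1.43 in JHT mice. A test of whether the tissue difference of females depended on genotype (limma F test) called none of the 10, against 0.245% of all genes. Vip was the only member with an unadjusted p under 0.05 there (limma adjusted p = 0.42), a mark that 7.69% of all genes passed.

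Whether the AD transgenes, or the lack of B cells, changed these genes was asked within each tissue. No member was called in any of the 5 comparisons of hippocampus or the 5 of brain. At an unadjusted p under 0.05, hippocampal counts were 1 for 3xTgAD against WT females (12% of all genes), 2 for JHT_3xTgAD against 3xTgAD females (16.4%), 3 for the males of the same genotypes (18.2%), 0 with both sexes (10.5%) and 0 for JHT against WT females (7.83%). In the brain, 2 members passed that mark for JHT_3xTgAD against 3xTgAD males (11.5%) and 0 in the other comparisons (11%, 12.9%, 14.5% and 6.31%). Called genes made up 0.746%, 0.37%, 0.847%, 1.02% and 0.0926% of all genes in the hippocampal comparisons, in the same order, and 1.15%, 1.12%, 0.961%, 2.64% and 0.161% in the brain.

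The intervals show how much could have been missed. In the brain, the 95% interval of all 10 members lay inside a 2-fold difference in each of the 5 comparisons. Brain differences between 3xTgAD and WT females ran only from 0.02 to 0.11. In the hippocampus, 8 of 10 intervals lay inside 2-fold for 3xTgAD against WT females, 6 for JHT_3xTgAD against 3xTgAD females, 8 for the males, 10 with both sexes and 8 for JHT against WT females. Intervals of Tac1 were wide. They ran from -0.73 to 1.30 in JHT_3xTgAD against 3xTgAD females and from -1.57 to 0.29 in 3xTgAD against WT females.

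**Figure D3:**
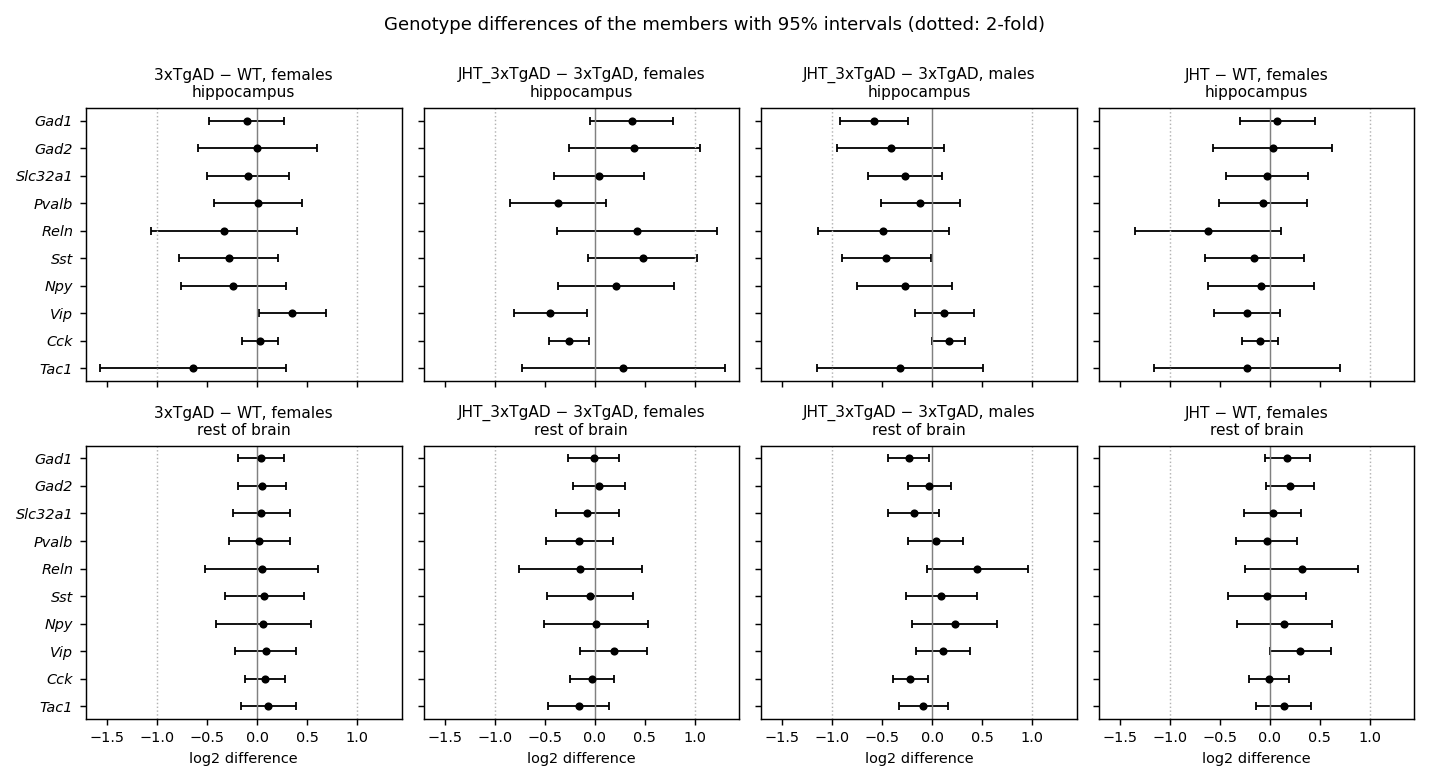
Log2 difference between genotypes (x axis) for each member (y axis) in hippocampus (top) and rest of brain (bottom), with 95% limma intervals and dotted lines at a 2-fold difference. All intervals in the bottom row stay inside the dotted lines, and those of Tac1 and Reln in hippocampus are the widest.

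Gad1 came nearest to a call. In the hippocampus of males it was 13.64, 13.96 and 13.81 in 3xTgAD mice and 13.02, 13.09 and 13.55 in JHT_3xTgAD mice. All 3 JHT_3xTgAD males lay below all 3 3xTgAD males, as 9.19% of all genes did, with a change of -0.58 (SE 0.15, adjusted p = 0.104). In females it was 13.39 and 13.34 in 3xTgAD and 13.77 and 13.71 in JHT_3xTgAD mice, a difference of 0.37 that was not called (adjusted p = 0.355), and 56.7% of all genes did not overlap between those 2 groups. The difference between the sexes, 0.95 (SE 0.24), had an adjusted p of 0.0773 and was not called. The call in males moved with the fit. It appeared with the slide as a block (-0.78, adjusted p = 0.0277), where the estimate is that of replicate 0 alone against the 3xTgAD males on slide 1, without JHT_3xTgAD male replicate 9 (-0.74, adjusted p = 0.0198), and with all 30 arrays and the mouse as a random block (adjusted p = 0.0128). Striatal markers moved with Gad1 in these males, with the summed level of 7 genes at 13.12, 13.10 and 13.52 in JHT_3xTgAD and 13.60, 14.28 and 13.59 in 3xTgAD hippocampi and 1 of 7 called lower. The same males were also separated by endothelial markers, at 14.78, 14.57 and 14.33 against 14.07, 13.90 and 13.84 with 1 of 6 called higher. Microglial markers summed to 16.51, 16.23 and 15.75 against 15.75, 15.58 and 15.64. Choroid plexus markers summed to 12.89, 11.40 and 13.45 against 14.11, 18.54 and 13.47. The part of these cell types in the Gad1 values was not tested. Without replicate 0, whose array had the 432 outlier spots, the change was -0.48 (adjusted p = 0.199), and with only the groups compared the adjusted p was 0.353. Tac1 was also called with the slide as a block in males (-1.27, adjusted p = 0.0348), again from replicate 0, at 10.15 against 11.50, 11.03 and 11.73 in 3xTgAD males.

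Vip and Cck were the members with an unadjusted p under 0.05 between JHT_3xTgAD and 3xTgAD females in hippocampus, and neither was called. Vip was 9.80, 10.11 and 9.68 in WT, 10.21 and 10.22 in 3xTgAD, and 9.74 and 9.80 in JHT_3xTgAD females. It was higher in 3xTgAD than in WT by 0.35 (SE 0.15, adjusted p = 0.39) and lower in JHT_3xTgAD than in 3xTgAD by -0.44 (SE 0.16, adjusted p = 0.23), 2 comparisons that share the 3xTgAD mice. Cck was 17.50 and 17.52 in 3xTgAD and 17.24 and 17.27 in JHT_3xTgAD females, a change of -0.26 (SE 0.089, adjusted p = 0.208). In the same hippocampi, excitatory neuron markers summed to 16.07 and 15.95 in 3xTgAD and 15.80 and 15.84 in JHT_3xTgAD females, and genes of the hippocampal fields to 15.19 and 15.08 against 14.61 and 14.23, and their part in the Cck values was not tested. In males the Cck change was 0.16 (adjusted p = 0.269), and the sexes differed by -0.42 (adjusted p = 0.0841). In the brain of the same males, Cck and Gad1 were the 2 members past the unadjusted mark, with changes of -0.22 (adjusted p = 0.333) and -0.23 (adjusted p = 0.37). Neither was called, and the hippocampal Cck change of these males turned from 0.16 to -0.033 with the deposited scores. For the difference between the sexes, 4 members (Gad1, Sst, Cck and Vip) had an unadjusted p under 0.05 in the hippocampus, where 21.2% of all genes did, and none was called, against 0.0245% of all genes. In the brain, 0 members passed the unadjusted mark for that difference (8.75% of all genes) and 0 were called (0.101%). The hippocampal Sst change between JHT_3xTgAD and 3xTgAD mice was -0.46 in males (adjusted p = 0.26) and 0.48 in females (adjusted p = 0.361, 95% interval -0.06 to 1.03), and neither was called. On leaving out each mouse in turn, the change in males ran from -0.63 to -0.22.

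Some genes of the members' pathways were called between genotypes. Of the 83 list genes, 2 were called in 3xTgAD against WT females in hippocampus, both lower, Sstr3 and Cort. Sst and the other somatostatin receptors on the lists, Sstr1, Sstr2 and Sstr4, were not called. Sstr3, the somatostatin receptor of neuronal primary cilia, was 13.23, 13.24 and 13.22 in WT hippocampi and 12.01 and 12.01 in those of 3xTgAD females. Its change was -1.22 (SE 0.15, adjusted p = 0.00553). The call was kept under every alternative followed for single genes, which did not include the methods' t-test. In males, 3xTgAD hippocampi were at 11.98, 11.92 and 12.15, and JHT_3xTgAD hippocampi at 12.99, 13.40 and 12.78, a change of 1.04 (SE 0.13, adjusted p = 0.0067). JHT_3xTgAD females were at 12.50 and 12.47, 0.48 above 3xTgAD (adjusted p = 0.208), and with both sexes the change was 0.76 (SE 0.11, adjusted p = 0.00747). The 5 3xTgAD hippocampi were below all 10 others, JHT females included (12.83 and 12.87), an order in which 0.757% of all genes lay. Endothelial markers lay in the same order, with the summed level of 6 genes at 13.79 to 14.07 in the 3xTgAD hippocampi and 14.29 to 14.78 in the others. Of those 6 genes, 1 was called lower in 3xTgAD than in WT females and 1 higher in JHT_3xTgAD than in 3xTgAD mice with both sexes, and their part in the Sstr3 difference was not tested.

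In the rest of the brain, the 5 3xTgAD mice also lay below all others for Sstr3 (1.31% of all genes) and for the endothelial sum, at 13.77 to 14.08 against 14.11 to 14.60. For Sstr3, the 5 3xTgAD mice lay between 11.22 and 11.45 and the 5 JHT_3xTgAD mice between 11.54 and 12.08, a change of 0.49 (SE 0.10, adjusted p = 0.0347), while 3xTgAD against WT females was -0.66 (adjusted p = 0.0709). The JHT_3xTgAD and 3xTgAD females lay on 1 slide in each tissue, whereas 3xTgAD and WT females did not share a slide. Among JHT_3xTgAD males, the hippocampi of replicates 8 and 9 and the brains of replicates 0 and 9 lay on other slides than all 3xTgAD mice. Comparisons of males or of both sexes are thus partly mixed with the slide. With only the groups compared, the hippocampal call was lost for JHT_3xTgAD against 3xTgAD males (adjusted p = 0.231) and with both sexes (0.0743). In the brain, the call with both sexes was lost with scaling to the 75th percentile (adjusted p = 0.0903), with the deposited scores (0.0968) and on leaving out any of 7 of the 10 mice. Sst itself, the gene of the ligand, was 14.28 and 14.63 in hippocampi of 3xTgAD females against 14.76, 14.73 and 14.73 in WT, a change of -0.28 (SE 0.22, adjusted p = 0.727).

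Cort encodes cortistatin, a peptide close to somatostatin that binds the same receptors. It was 12.51, 12.56 and 12.20 in WT hippocampi and 10.31 and 11.09 in 3xTgAD females, a change of -1.72 (SE 0.33, adjusted p = 0.0463). Males of 3xTgAD (11.24, 10.71 and 11.47) and all 5 JHT_3xTgAD mice (10.85 to 11.84) lay below every WT and JHT hippocampus as well, an order in which 0.35% of all genes lay. JHT_3xTgAD did not differ from 3xTgAD by a called amount (0.51 with both sexes, adjusted p = 0.485). The call against WT was lost with the slide as a block (-1.11, adjusted p = 0.276), with only the groups compared, and without 3xTgAD replicate 1 (-1.33, adjusted p = 0.23) or WT replicate 10, 11 or 12.

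**Figure D4:**
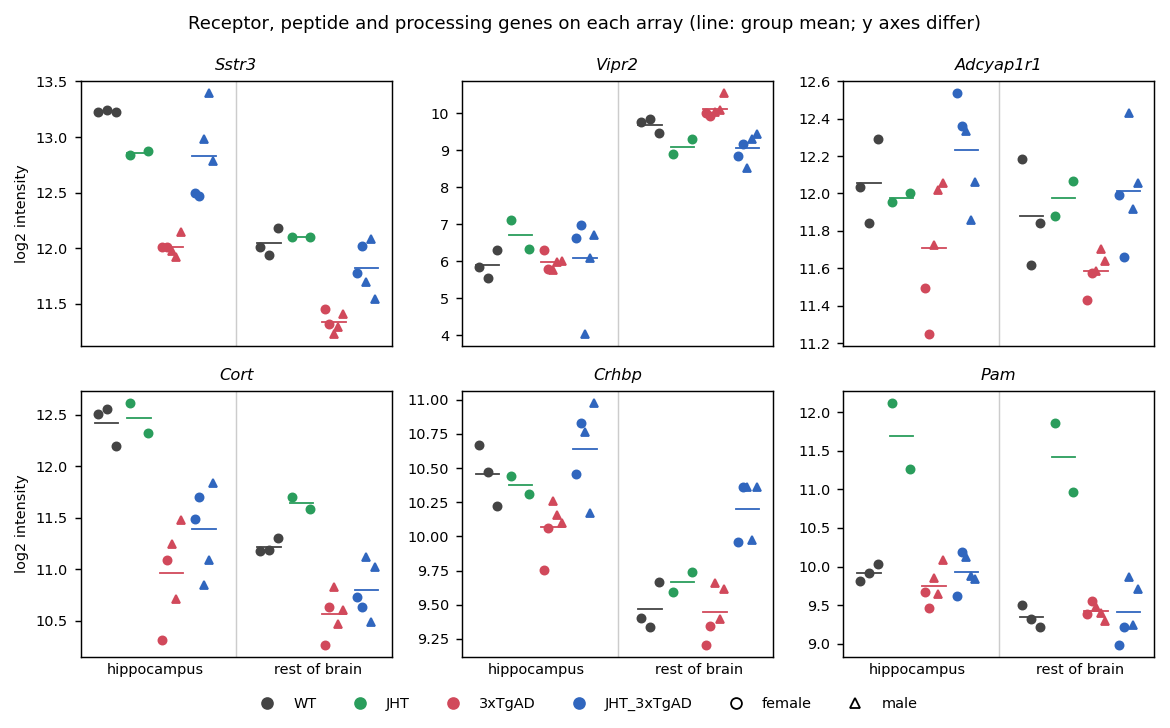
Log2 intensity (y axis, own range for each gene) of the 6 list genes called between genotypes, on each array by tissue (x axis) and genotype (colours; circles females, triangles males, lines group means). Among hippocampi, those of 3xTgAD mice have the lowest Sstr3, at 11.92 to 12.15, and the JHT mice stand apart for Pam.

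Vipr2 in the brain was 9.93 to 10.56 in the 5 3xTgAD mice and 8.51 to 9.45 in the 5 JHT_3xTgAD mice, with no overlap (4.5% of all genes) and a change of -1.05 (SE 0.19, adjusted p = 0.0166). JHT brains were at 8.90 and 9.30 and WT brains at 9.76, 9.84 and 9.48, a difference of -0.59 that was not called (adjusted p = 0.802), while in hippocampus it was 0.82 (adjusted p = 0.82). RefSeq places Vipr2 on chromosome 12 with only 3 protein-coding genes between it and the joining segments of Igh, the locus deleted in JHT mice, and the part of that neighbourhood in the difference was not tested. With all 30 arrays and the mouse as a random block, the adjusted p of Vipr2 was 0.16. In hippocampus the change between JHT_3xTgAD and 3xTgAD mice was 0.23 (adjusted p = 0.91). The brain call was also lost without 3xTgAD replicate 1 (adjusted p = 0.0542) or JHT_3xTgAD replicate 6 (0.056). No member and none of the other 5 named genes lies on that chromosome. Adcyap1r1, the PACAP receptor, was higher in JHT_3xTgAD than in 3xTgAD hippocampi by 0.61 (SE 0.12, adjusted p = 0.0494), a call lost on leaving out any of 9 of the 10 mice.

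Crhbp, which binds corticotropin-releasing hormone and is made by Sst interneurons, was higher in JHT_3xTgAD than in 3xTgAD brains. The 3xTgAD brains lay between 9.21 and 9.66 and the JHT_3xTgAD brains between 9.96 and 10.36, with no overlap (2.42% of all genes in this direction). The change was 0.78 (SE 0.12, adjusted p = 0.0059). That call was kept under every alternative followed for single genes, again without the methods' t-test. In females alone it was 0.88 (adjusted p = 0.0496), a call lost without 3xTgAD replicate 1 or 2 or JHT_3xTgAD replicate 7. The endothelial sum separated the same brains, at 13.77 to 14.08 in 3xTgAD and 14.11 to 14.57 in JHT_3xTgAD mice with 1 of 6 genes called higher, and its part was not tested. Pam, the enzyme that amidates the ends of neuropeptide Y, substance P, cholecystokinin and vasoactive intestinal peptide, was the one list gene called between JHT and WT females. It was 12.12 and 11.26 in JHT hippocampi against 9.81, 9.91 and 10.03 in WT (1.77, SE 0.25, adjusted p = 0.0336), and 11.85 and 10.97 against 9.50, 9.32 and 9.21 in the brain (2.07, SE 0.24, adjusted p = 0.00593). Choroid plexus markers split the same hippocampi, with the summed level of 8 genes at 18.36 and 17.85 in JHT and 10.89 to 12.69 in WT, a median change of 5.31 with 0 of 8 called. In the brain, where Pam also differed, that sum was 16.54 and 16.88 in JHT and 16.47 to 17.18 in WT. JHT_3xTgAD mice, which carry the same deletion, stayed at 9.62 to 10.19 in hippocampus, a range that overlaps that of 3xTgAD mice, 9.46 to 10.09. With only the groups compared, both Pam calls were lost (adjusted p = 0.226 in hippocampus and 0.295 in the brain), and the hippocampal call was lost without WT replicate 10, 11 or 12.

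Across the 15 mice of a tissue, some members varied together, described here by Pearson's r with no test, since arrays share slides and genotypes. Sst and Npy had the highest r of the 45 pairs in the brain (0.80, Spearman's rho 0.76) and one of the higher ones in hippocampus (0.73, rho 0.57). Gad1 and Gad2 were at 0.69 in hippocampus and 0.76 in the brain. Gad2 and Slc32a1, the highest pair in hippocampus at 0.76, were at -0.08 in the brain. Cck ran against Gad1 in hippocampus (r = -0.76) and not in the brain (0.25). The median over pairs was 0.11 in hippocampus and 0.15 in the brain.

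**Figure D5:**
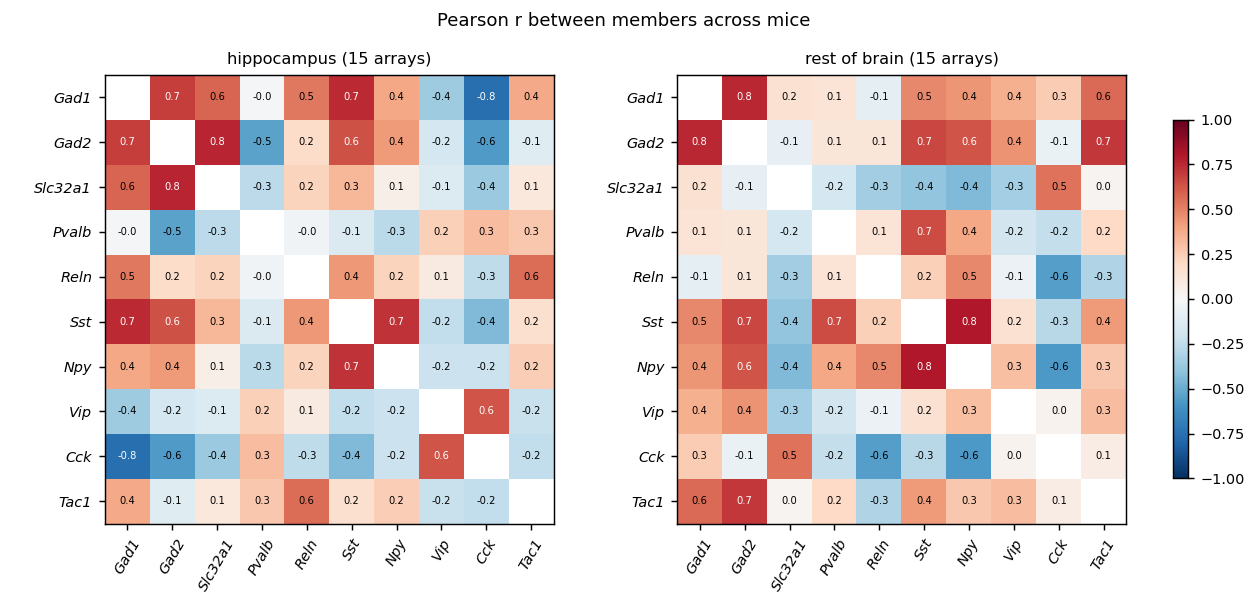
Pearson's r between each pair of members (both axes) over the 15 hippocampal arrays (left) and the 15 brain arrays (right), from -1 (blue) to 1 (red). Sst with Npy and Gad1 with Gad2 are positive in both tissues, while Gad2 with Slc32a1 and Cck with Gad1 differ between them.

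The genes most like each member over 15 arrays were listed by Pearson's r, the highest among 13957 genes or more in each search. For Slc32a1 in hippocampus, they were Dlx5 (0.88) and Sp9 (0.87), both transcription factors of the ganglionic eminences and both among the fixed lists. For Sst they were Tmsb10 and Nfkbib in hippocampus (0.92 and 0.90) and Hcfc1r1 and Eefsec in the brain (0.95 and 0.94). Tac1 in the brain was most like Vgf (0.84), a granule protein of the fixed lists, and Rhbdl3 (0.84). For Pvalb they were Fam98c and Gls2 in hippocampus (0.92 and 0.90), and for Reln in the brain Grin2b and Copg1 (0.92 and 0.91). Without the 2 arrays farthest from the median of the member, r fell to 0.73 for Dlx5 and stayed at 0.94 for Hcfc1r1.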

How the data were processed

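Total RNA of the hippocampus and of the rest of the brain of 15 mice was hybridised to 30 one-colour Agilent mouse arrays, and spot intensities were deposited by the authors as Feature Extraction (12.0.3.1) output, in which the processed intensity is background-subtracted. The authors also deposited 1 score per probe and array, a Z score of log10 intensity within the array, used here as an alternative. Of 62976 spots, 3671 control spots were left out. Outlier spots were dropped, and spots of a probe were averaged on the log2 scale. Processed intensities were quantile normalized across arrays with limma 3.58.1 in R 4.3.3, and each gene was read from its probe of highest mean, which left 36717 genes and transcripts. No depth exists for arrays, so precision rests on the number of mice.

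Tissues were compared with limma over 12 groups of tissue, genotype and sex, and genotypes within each tissue over 6 groups, with Benjamini-Hochberg adjustment over all 36717 and a threshold of 0.05. The mouse was not a block in these fits. Arrays with the same number were taken as 1 mouse, since the design text counts 15 mice for both tissues and each number has the same genotype and sex in both, although no label says so. Over 19491 genes the deviations of a mouse's 2 arrays from their group means correlated at a median of 0.105 (-0.178 to 0.240, above 0.1 in 8 of 15). Between mice of the same group the median was -0.0446. With the means of such small groups removed, that value largely mirrors the first and is no separate comparator. These values do not settle the pairing. Alternatives covered normalization, background (normexp, offset 50), probes, a filter on dim probes, slide and mouse as blocks, the methods' t-test and each mouse left out. Scripts were tested on simulated data, where estimates and error rates were as set but many shifted genes were missed: most of the smaller shifts in each comparison simulated (tissues, and JHT_3xTgAD against 3xTgAD hippocampi of females and of both sexes), and most of the larger shifts in both genotype comparisons. A lack of calls is therefore weak evidence. Summed marker levels are log2 of summed linear intensities. The members and gene lists were chosen with earlier results of these data known. Named genes were all members, up to 5 list genes with the largest called change in each comparison, and the 2 genes most like each member in a tissue (a selection of these is printed). Other list genes were named after their values were seen. Promoters came from RefSeq (GRCm38.p6). Some items are not reported here.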

Additional observations from a re-analysis of the deposited data

Results flagged for a closer look

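In groups of 5 mice of a genotype and tissue, 1 mouse stood apart for 2 of 40 groups tested, by Dixon's ratio (the distance to the nearest mouse over the spread of all 5), and chance gives about 1 in 20. Vip in the brain of JHT_3xTgAD male replicate 8 was 10.78, above the next value of 10.60 (ratio 0.835). Gad2 in the brain of 3xTgAD female replicate 1 was 13.58, below the next value of 13.90 (ratio 0.833).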

How the results depend on the processing

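The number of members called between the tissues was 8. The 75th percentile scaling and the deposited scores each gave 9, by adding Sst, and the count was 8 to 9 when each mouse was left out in turn. With the mouse as a replicate block it was 8, and with the slide as a random block 8, where calls over all genes went from 18773 to 11352. In the hippocampus of JHT_3xTgAD against 3xTgAD males, where no member was called, 2 were called with the slide as a block (Gad1 and Tac1), 1 with all 30 arrays and the mouse as a random replicate block (Gad1), and 0 to 1 when each mouse was left out. No other count of called members changed with a replicate block. The methods' t-test without adjustment called 4 members for the females (13.3% of all genes) and 2 for the males (10.8%) of those genotypes in hippocampus, 1 for JHT against WT females in hippocampus (9.28%), and 1 each for the females (17.7%) and the males (8.31%) in the brain. Cck in the hippocampus of males, 0.16 and not called, turned to -0.033 with the deposited scores, whose unit is the SD of log10 intensity within an array. Members with an unadjusted p of 0.05 or more between genotypes are given as values only and were not followed singly through the alternatives, a limit set after many of their signs were seen to turn. Tissue and slide can hardly be told apart, and 3xTgAD and WT females lay on different slides. Most JHT_3xTgAD males also lay on other slides than the 3xTgAD males. With 2 or 3 mice a group, a missed call does not show that levels were alike. Reln was close to background.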
